A study of Mus musculus with 8 samples.

Results

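Plasmacytoid dendritic cells are rare blood cells that detect viral nucleic acids through Toll-like receptors in their endosomes and then secrete type I interferon. The transcription factor TCF4 (also called E2-2) holds them in that identity, against the inhibitor ID2, and in the mouse the surface lectin Siglec-H marks them. Some of the genes they use are shared with B cells, so in a mixed blood preparation a transcript can come from more than 1 cell type.

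The genes described here are 9 genes known for expression in these cells: Siglech, Tcf4, Klk1, Cox6a2, Ly6d, Runx2, Pacsin1, Smim5 and Lair1. They were chosen by name, and all 9 were found among the 56748 genes of the count table, each as a single row. All 9 passed the filter on low counts that left 14723 genes for testing. Poly(A) RNA was sequenced from blood mononuclear cells of wild-type male C57BL/6J mice, which were 8 weeks old when dosing began. The cells came from heart blood separated on a density gradient, so they are a mixture of types. Of the 8 libraries, 5 were from mice gavaged with saline and 3 from mice gavaged with fucoidan, a sulphated seaweed polysaccharide from Undaria pinnatifida, at 200 mg/kg each day for 1 month. Every animal ate the same standard basal diet. Titles call the libraries biological replicates, and the labels give no further detail of which animals they came from.

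Libraries held 13061703 to 16334932 counts. Haemoglobin transcripts took 3.51 to 8.48% of counts after saline and 13.55 to 24.1% after fucoidan (exact two-sided permutation p = 0.0357, the smallest that 56 arrangements allow). Saline replicate 3 had the highest of the saline shares and fucoidan replicate 3 the highest of all. These 2 libraries were left out singly and together, and results that change without them are given both ways. Levels are given as CPM, counts scaled to a common library size with TMM factors, and fold changes are fucoidan over saline from edgeR's quasi-likelihood test. Calls needed an adjusted p (Benjamini-Hochberg, over all tested genes) under 0.05.

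The 9 genes did not move as a block. Klk1 rose, Tcf4 and Pacsin1 fell, and the other 6, Siglech among them, were not called. Of all tested genes 13.8% were called, 9.11% higher and 4.65% lower, beside 3 of the 9. Without fucoidan replicate 3, or without replicate 3 of both groups, 0 of the 9 were called higher and 1 lower. Calls over all genes fell too, from 1341 higher and 684 lower. They numbered 746 and 182 of 15202 without fucoidan replicate 3, and 836 and 143 of 15113 without replicate 3 of both groups. The 9 genes were chosen with earlier results of these data known, so nothing is read from their share. The median log2 fold change was 0.32 over the 9 genes and -0.04 over all tested genes. In 3 of the 9 (the same Klk1, Tcf4 and Pacsin1) the groups did not overlap, as in 22.6% of all tested genes.

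**Figure D1:**
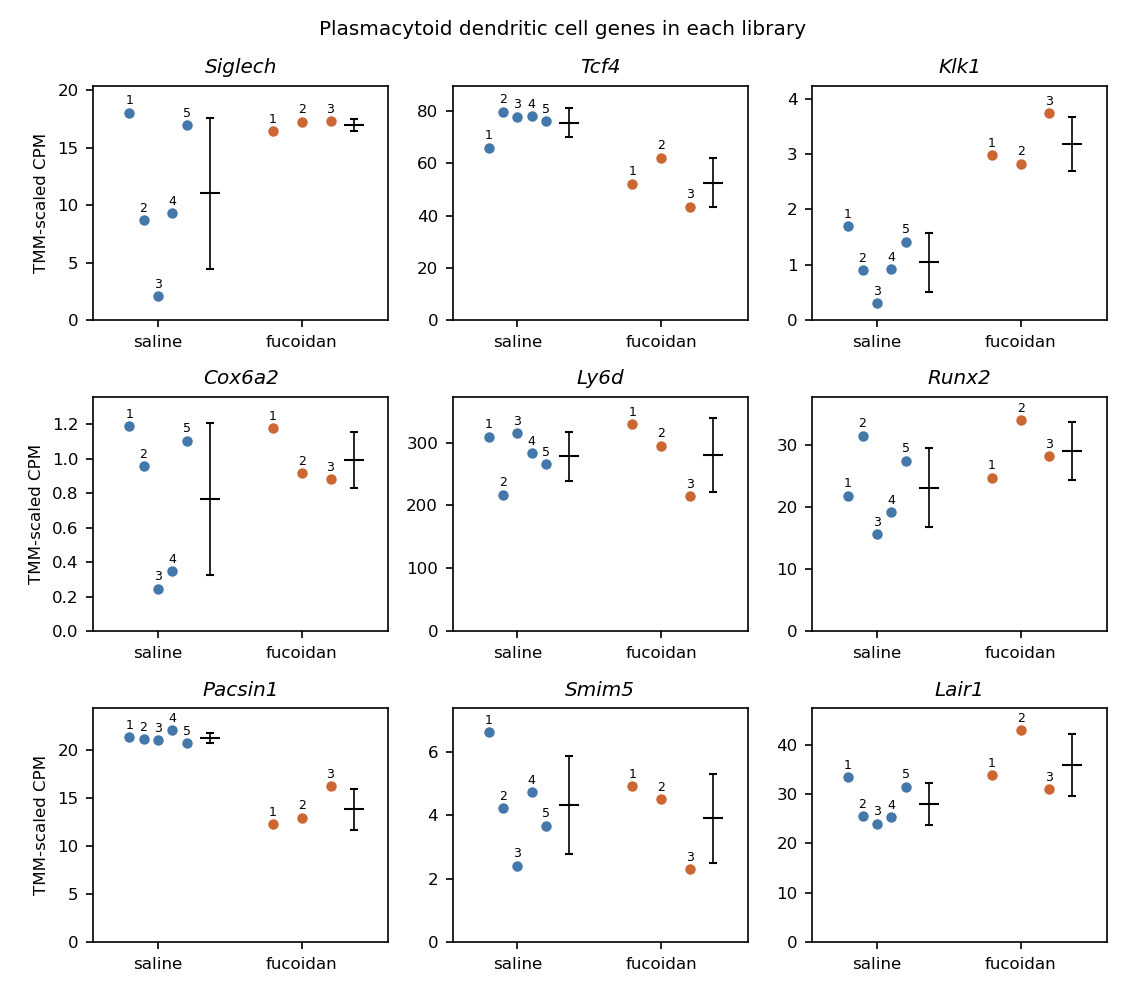
TMM-scaled CPM (vertical axes, from 0) of each of the 9 genes in the 5 saline and 3 fucoidan libraries; digits are replicate numbers, and the black bars are the mean and SD of each group. Only Klk1 (higher), Tcf4 and Pacsin1 (lower) show groups that do not overlap, and saline replicate 3 is the lowest saline library for Siglech, Klk1, Cox6a2, Runx2, Smim5 and Lair1.

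The DNA just upstream of Siglech and Klk1 is shown because Siglech is the defining surface gene and Klk1 the gene that rose. TCF4 and other E proteins bind the E-box, CANNTG, which reads the same on both strands in this form and is set in capitals. The windows are from RefSeq on GRCm38.p6, plus strand, 250 bases ending just before the annotated start, at chr7:55767934-55768183 and chr7:44225110-44225359.
Siglech: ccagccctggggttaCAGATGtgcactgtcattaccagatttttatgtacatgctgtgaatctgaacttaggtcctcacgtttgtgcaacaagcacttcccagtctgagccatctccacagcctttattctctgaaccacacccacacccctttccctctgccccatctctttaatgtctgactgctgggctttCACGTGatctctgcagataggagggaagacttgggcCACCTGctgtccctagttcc
Klk1: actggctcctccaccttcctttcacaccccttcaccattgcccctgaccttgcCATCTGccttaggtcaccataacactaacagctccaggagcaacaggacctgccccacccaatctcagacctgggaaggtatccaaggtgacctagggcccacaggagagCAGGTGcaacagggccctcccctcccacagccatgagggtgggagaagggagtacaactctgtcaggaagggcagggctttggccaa

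The Siglech window held 3 E-boxes and the Klk1 window 2, against a mean of 1.16 over 32536 distinct windows of that length, of which 66.2% held at least 1. Each of these windows also held 1 match to the particular E-box CAGGTG (either strand, and itself a CANNTG), which 17.3% of all windows held. RefSeq windows were found for 5 of the 9 genes: Siglech, Klk1, Runx2, Pacsin1 and Lair1. E-boxes numbered 1 in the Runx2 window, 1 in the Lair1 window and 0 in the Pacsin1 window. None of these windows held CAGGTG. The RUNX motif TGTGGT (either strand) had 1 match each for Siglech, Runx2 and Pacsin1, and 14.0% of all windows held it. A match is a run of letters and says nothing of binding.

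Siglech (ENSMUSG00000051504, GRCm39 chromosome 7, 55417926 to 55428673) encodes a member of the Siglec lectin family that pairs with the adaptor DAP12 and restrains interferon secretion in mouse plasmacytoid cells. Saline replicates 1 to 5 had 18.1, 8.73, 2.11, 9.30 and 16.96 CPM, from 319, 155, 34, 161 and 323 counts. Fucoidan replicates 1 to 3 had 16.4, 17.3 and 17.3 CPM, from 237, 226 and 157 counts. The 3 fucoidan libraries lay close together and inside the saline range, which was wide, with saline replicate 3 the lowest of all and saline replicate 1 the highest.

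The means were 11.03 ± 6.56 CPM (SD, n = 5) after saline and 16.98 ± 0.498 CPM (SD, n = 3) after fucoidan. Siglech was not called, at a log2 fold change of 0.62 (SE 0.460, adjusted p = 0.421) with a 95% interval of -0.39 to 1.63. Without saline replicate 3 the log2 fold change was 0.36 (adjusted p = 0.422). With the replicate number as a block, which compares saline and fucoidan libraries of the same number, it was 1.12 (adjusted p = 0.442). Tyrobp, the gene of DAP12, stood at 146 ± 24.2 CPM (SD, n = 5) and 147 ± 14.07 CPM (SD, n = 3), although natural killer cells and monocytes express it too.

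Lair1 (ENSMUSG00000055541, chromosome 7, 4006401 to 4066203) encodes an inhibitory receptor for collagen, found on many leukocytes. Its saline libraries had 33.4, 25.6, 24.0, 25.3 and 31.5 CPM, and its fucoidan libraries 33.8, 42.9 and 31.03 CPM. The groups overlapped, with fucoidan replicate 2 the highest, and the log2 fold change of 0.36 (SE 0.147, adjusted p = 0.131) was not called. Its SHP-2 phosphatase partner Ptpn11 was called higher, at log2 1.00 (SE 0.199, adjusted p = 0.00788), while the related phosphatase gene Ptpn6 stood at 0.06 (adjusted p = 0.800). Ptpn11 had 295, 323 and 570 CPM in fucoidan replicates 1 to 3. Its highest saline library was saline replicate 3, and which cells its transcripts came from was not tested.

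Ly6d (ENSMUSG00000034634, chromosome 15, 74633905 to 74635469) encodes a lipid-anchored surface protein that marks lymphoid progenitors turning to the B cell lineage and is kept by B cells. It had 309, 217, 314, 283 and 266 CPM after saline and 329, 295 and 215 CPM after fucoidan. Those ranges coincide: fucoidan replicate 1 was the highest of all libraries and fucoidan replicate 3 the lowest. The log2 fold change was 0.0094 (SE 0.160, adjusted p = 0.978), with a 95% interval of -0.34 to 0.36, and its sign changed between settings.

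Tcf4 (ENSMUSG00000053477, chromosome 18, 69476427 to 69822150), the E protein on which plasmacytoid dendritic cells depend, was lower with fucoidan. Saline libraries had 65.9, 79.7, 77.8, 77.8 and 75.9 CPM, and fucoidan libraries 52.1, 62.1 and 43.4 CPM. Every fucoidan library was below every saline library. The means were 75.4 ± 5.48 CPM (SD, n = 5) and 52.5 ± 9.37 CPM (SD, n = 3), a log2 fold change of -0.52 (SE 0.123, adjusted p = 0.0178). In bulk RNA, fewer cells of a type and less RNA per cell cannot be told apart. Tcf4 was no longer called without fucoidan replicate 3 (log2 -0.39, adjusted p = 0.0986) or without fucoidan replicate 1 (log2 -0.51, adjusted p = 0.0623). With replicate 3 of both groups left out it was -0.38 (adjusted p = 0.151).

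Runx2 (ENSMUSG00000039153, chromosome 17, 44806874 to 45125684), best known as the factor of bone-forming cells, is needed in mice for plasmacytoid dendritic cells to leave the bone marrow. After saline it had 21.9, 31.5, 15.7, 19.2 and 27.5 CPM, and after fucoidan 24.8, 34.05 and 28.3 CPM. The groups overlapped widely, and the log2 fold change of 0.32 (SE 0.208, adjusted p = 0.344) was not called.

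Pacsin1 (ENSMUSG00000040276, chromosome 17, 27874483 to 27930456) encodes a membrane-bending adaptor of neurons that plasmacytoid dendritic cells also use for interferon responses to Toll-like receptor 7 and 9 ligands. It had 21.4, 21.2, 21.02, 22.1 and 20.7 CPM after saline and 12.3, 12.98 and 16.3 CPM after fucoidan. Saline libraries were almost level, saline replicate 3 included, and all fucoidan libraries lay below them. The means were 21.3 ± 0.503 CPM (SD, n = 5) and 13.9 ± 2.12 CPM (SD, n = 3), a log2 fold change of -0.62 (SE 0.122, adjusted p = 0.00737). Pacsin1 was called under all 18 alternatives run. Among its relatives, Pacsin2, which is widely expressed and found in platelets, was called higher (log2 0.97, SE 0.173, adjusted p = 0.00521), and Pacsin3 did not pass the filter.

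Klk1 (ENSMUSG00000063903, chromosome 7, 43874784 to 43879042) encodes tissue kallikrein, a secreted protease that frees kinins and is otherwise abundant in kidney and salivary gland. Saline libraries had 1.70, 0.901, 0.310, 0.925 and 1.42 CPM, from 30, 16, 5, 16 and 27 counts. Fucoidan libraries had 2.98, 2.83 and 3.74 CPM, from 43, 37 and 34 counts. All fucoidan libraries were above all saline libraries, with saline replicate 3 the lowest. The means were 1.05 ± 0.534 CPM (SD, n = 5) and 3.18 ± 0.491 CPM (SD, n = 3), so Klk1 rose 2.98-fold (log2 1.58, SE 0.408, adjusted p = 0.0266).

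Counts of this size leave Klk1 the least firmly measured of the 3 called among the 9 genes. It was not called without saline replicate 4 or without any 1 of the fucoidan libraries (adjusted p = 0.0575 to 0.105), though its log2 fold change then stayed at 1.46 to 1.66. Without saline replicate 3 it was called at log2 1.36 (adjusted p = 0.0210). Without replicate 3 of both groups it was not called, at log2 1.24 (adjusted p = 0.0843). Reads of its close relatives, the 23 Klk1b genes and pseudogenes of the table, could be confused with its own, and how reads were shared out between them was not tested. They held 44 counts over all libraries against 208 for Klk1, and 18 of them were at 0 throughout.

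Cox6a2 (ENSMUSG00000030785, chromosome 7, 127804607 to 127805559) encodes the heart and skeletal muscle form of a cytochrome c oxidase subunit. It had 1.19, 0.957, 0.248, 0.347 and 1.10 CPM after saline and 1.18, 0.916 and 0.880 CPM after fucoidan, from 4 to 21 counts per library. Saline replicates 3 and 4 were low and the other 6 libraries alike, and the log2 fold change of 0.36 (SE 0.511, adjusted p = 0.699) had a wide 95% interval of -0.76 to 1.49. It was 0.15 without saline replicate 3 (adjusted p = 0.875). Blood was drawn from the heart. Of 15 heart and skeletal muscle markers 3 passed the filter, and Myh6 and Myh7 did not. The summed level of those markers was 3.05 to 7.88 CPM after saline and 3.53 to 4.28 CPM after fucoidan, and the part of muscle RNA in the level of Cox6a2 was not tested. Cox6a1, the form used in most tissues and picked out after its value was seen, was called higher (log2 0.55, SE 0.147, adjusted p = 0.0306).

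Smim5 (ENSMUSG00000048442, chromosome 11, 115790792 to 115797095) encodes a small membrane protein. Its levels were 6.62, 4.22, 2.42, 4.74 and 3.68 CPM after saline and 4.91, 4.50 and 2.31 CPM after fucoidan, so that replicate 3 was the lowest library of each group. It was not called (log2 -0.13, SE 0.331, adjusted p = 0.848), and its sign changed between settings: it was at -0.27 without saline replicate 3 and at 0.13 without fucoidan replicate 3. Smim3, which shares with it the name of small integral membrane protein and is not known to be of the same family, was called higher, from 74.1 ± 17.4 CPM (SD, n = 5) to 192 ± 90.3 (SD, n = 3), at log2 1.37 (SE 0.256, adjusted p = 0.00612), with fucoidan replicate 3 far above the others.

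Per kilobase of gene model, over all 8 libraries, Ly6d had by far the highest level, with a mean of 374 CPM per kilobase and a range of 288 to 443. Lair1 followed at 4.14, Siglech at 3.92, Runx2 at 2.87, Pacsin1 at 2.83, Smim5 at 2.53, Tcf4 at 2.44, Klk1 at 1.72 and Cox6a2 at 1.25 CPM per kilobase. Below Ly6d each neighbour in this order overlapped the next over libraries, so the order of neighbours is not firm. Some genes farther apart did not overlap: the lowest library of Lair1 (3.21) lay above the highest of Tcf4 (2.91). The gene model of Tcf4 sums 27382 bases over its many isoforms, which lowers its value per kilobase.

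Saline replicate 3 had the lowest saline level of 6 of the 9 genes and the lowest of all 8 libraries for 5. This was noticed after the values were seen. Siglech there was 0.159 of the mean of the other saline libraries (13.3 CPM), Klk1 0.251, Cox6a2 0.276, Smim5 0.502, Runx2 0.627 and Lair1 0.830. Tcf4, Ly6d and Pacsin1 did not share this: they stood at 1.04, 1.17 and 0.985 of that mean. Among all tested genes 17.6% had their lowest saline level in saline replicate 3. So did 7 of 10 neutrophil, 5 of 10 classical monocyte, 4 of 10 nonclassical monocyte and 3 of 10 T cell markers. It was 4 of 15 for conventional dendritic cell markers, 0 of 10 for natural killer cell markers and 0 of 15 for B cell markers. That library's haemoglobin share was the highest after saline, and the part it plays was not tested.

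**Figure D2:**
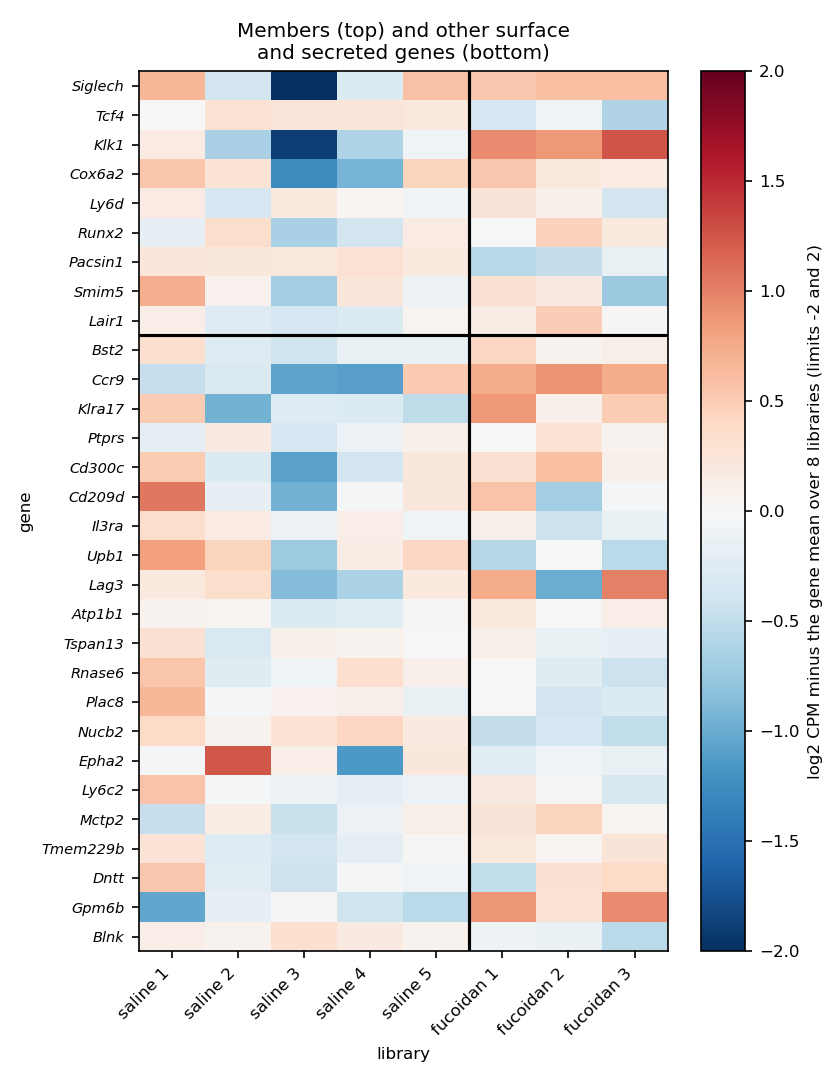
Log2 CPM of the 9 genes (above the line) and of 21 other surface and secreted genes of plasmacytoid dendritic cells (below it) in each library, minus the gene's mean over 8 libraries; the colour scale ends at -2 and 2. The column of saline replicate 3 is blue for Siglech, Klk1, Cox6a2, Ccr9 and Cd300c but not for Tcf4, Pacsin1 or Ly6d, and the fucoidan columns are red for Klk1 and Ccr9 and blue for Pacsin1 and Nucb2.

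Genes beyond the 9 were read from 3 lists: other surface and secreted genes, transcription factors, and the sensing of nucleic acids in endosomes. Together they hold 52 genes, of which 50 were tested. In all, 2 rose and 5 fell, which is 14% against the 13.8% called among all tested genes, and their median log2 fold change was -0.02. These lists as a whole were thus called about as often as any genes, counting both directions. More of their calls were lower than higher, while over all tested genes 9.11% were higher and 4.65% lower. That split moved with the setting, at 6 higher and 5 lower by limma-voom. It was 2 and 2 without saline replicate 3, and 0 and 2 without fucoidan replicate 3. The lists were chosen with earlier results of these data known, so nothing is read from the split. Saline replicate 3 had the lowest saline level of 20 of the 50.

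Of the 21 surface and secreted genes 2 rose and 2 fell. Ccr9, a chemokine receptor that plasmacytoid dendritic cells share with gut-homing T cells, had 10.9, 12.2, 7.13, 6.99 and 21.5 CPM after saline and 25.2, 27.95 and 25.1 CPM after fucoidan. The fucoidan libraries were all higher, and saline replicates 3 and 4 were the lowest. Its log2 fold change was 1.15 (SE 0.307, adjusted p = 0.0300), but it was not called on leaving out saline replicate 1, 3 or 4 or any fucoidan library (adjusted p = 0.0504 to 0.110), nor with no filter on low counts (adjusted p = 0.191). Without replicate 3 of both groups Ccr9 stood at log2 1.05 (adjusted p = 0.146). Of 10 T cell markers 3 rose and 0 fell by edgeR, with a median log2 fold change of 0.50. Their summed level was 816 to 1088 CPM after saline and 1229 to 1629 CPM after fucoidan, and the part of T cells in the value of Ccr9 was not tested.

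Gpm6b, a membrane glycoprotein gene, stood at 4.55 ± 1.24 CPM (SD, n = 5) after saline and 9.99 ± 2.31 CPM (SD, n = 3) after fucoidan, a log2 fold change of 1.13 (SE 0.245, adjusted p = 0.0116), with adjusted p = 0.0585 without fucoidan replicate 3. Nucb2, which encodes a calcium-binding protein of the secretory pathway, fell: 15.2 ± 1.48 CPM (SD, n = 5) after saline and 9.25 ± 0.519 CPM (SD, n = 3) after fucoidan, at log2 -0.72 (SE 0.133, adjusted p = 0.00602). Blnk, the B cell linker, was called lower at log2 -0.40 (SE 0.119, adjusted p = 0.0463). That call ended with the replicate block (adjusted p = 0.0945), without saline replicate 3, 4 or 5 or any fucoidan library (adjusted p = 0.0624 to 0.210) and with 2 other scalings. Without replicate 3 of both groups Blnk stood at log2 -0.22 (adjusted p = 0.314). Bst2, an interferon-inducible surface protein used to stain mouse plasmacytoid dendritic cells, stood at 41.4 ± 8.38 CPM (SD, n = 5) and 51.3 ± 6.89 CPM (SD, n = 3) and was not called (adjusted p = 0.224).

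Of 14 transcription factor genes 0 rose and 2 fell by edgeR's test. Bcl11a, which maintains both B cells and plasmacytoid dendritic cells, had 142, 170, 134, 155 and 146 CPM after saline and 90.3, 103 and 91.3 CPM after fucoidan. Like Pacsin1 it did not overlap between groups, and its fall of log2 -0.65 (SE 0.107, adjusted p = 0.00406) was called under all 18 alternatives. Tcf3, an E protein related to Tcf4, was at log2 -0.40 (SE 0.110, adjusted p = 0.0333). Its call ended with the replicate block (adjusted p = 0.0724) and on leaving out any of saline replicates 3, 4 and 5 and fucoidan replicates 2 and 3 (adjusted p = 0.0612 to 0.161). Without replicate 3 of both groups Tcf3 stood at log2 -0.28 (adjusted p = 0.222). Irf8 and Spib, needed for these cells and expressed by B cells, stood at log2 -0.10 and 0.0022 (adjusted p = 0.663 and 0.995). Irf7, of the same list, stood higher at log2 0.64 (SE 0.212, adjusted p = 0.0715) but was not called, and its groups overlapped. It had 77.7 ± 17.3 CPM (SD, n = 5) after saline and 121 ± 39.5 CPM (SD, n = 3) after fucoidan.

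The antagonist of Tcf4, Id2, was picked out after its value was seen: it had 85.5 ± 20.4 CPM (SD, n = 5) after saline and 163 ± 27.9 CPM (SD, n = 3) after fucoidan, a log2 fold change of 0.93 (SE 0.188, adjusted p = 0.00838). Natural killer cells are rich in Id2, and all 10 of their markers rose, with a median log2 fold change of 1.11. Their summed level was 286 to 408 CPM after saline and 665 to 956 CPM after fucoidan, and the part of these cells in the value of Id2 was not tested. Runx3, a relative of Runx2 used by cytotoxic lymphocytes, was also called higher (log2 0.64, SE 0.127, adjusted p = 0.00756). Of a list of 33 relatives, like-named genes and partners of the 9 genes, 28 were tested, 6 were higher and 1 was lower. Over all tested genes 9.11% were higher and 4.65% lower. The 1 lower gene was Tcf3, already given among the transcription factors. This list too was chosen with earlier results of these data known, so nothing is read from its share.

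Among 15 tested genes of endosomal sensing 0 rose and 1 fell by edgeR's test. Unc93b1, the chaperone that brings Toll-like receptors to endosomes, had 422 ± 56.5 CPM (SD, n = 5) after saline and 292 ± 43.96 CPM (SD, n = 3) after fucoidan, at log2 -0.53 (SE 0.141, adjusted p = 0.0298). Leaving out any of saline replicates 3 and 4 and fucoidan replicates 2 and 3 ended its call (adjusted p = 0.0595 to 0.131). Without replicate 3 of both groups Unc93b1 stood at log2 -0.43 (adjusted p = 0.1685). Tlr7 and Tlr9, the receptors for single-stranded RNA and for CpG DNA, stood at log2 0.21 and -0.15 (adjusted p = 0.515 and 0.499). Type I interferon transcripts were near the limit of detection: 18 such genes held 13 counts over all 8 libraries, and 16 of them were at 0 throughout.

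**Figure D3:**
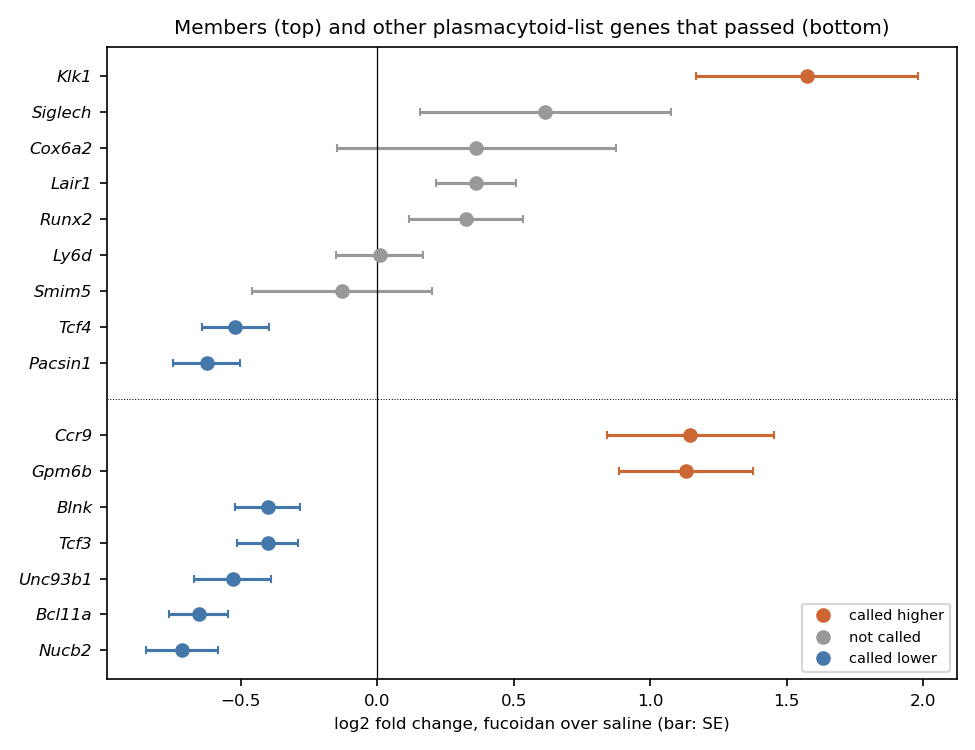
Log2 fold change of fucoidan over saline (horizontal axis) with its SE for the 9 genes, above the dotted line, and for the 7 called genes of the 3 wider lists, below it; orange marks genes called higher, blue those called lower and grey those not called. Klk1, Ccr9 and Gpm6b lie above 1, while Tcf4, Pacsin1, Bcl11a, Nucb2, Unc93b1, Tcf3 and Blnk lie between -0.40 and -0.72.

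Markers of B cells moved in the direction of Tcf4 and Pacsin1. Their median log2 fold change was -0.65, 12 of 15 fell and none of the others was called; 5 of 15 fell without fucoidan replicate 3. Their summed level was 5327 to 6903 CPM after saline and 3179 to 4555 CPM after fucoidan. B cells express Tcf4, Ly6d, Bcl11a, Tcf3 and Blnk, and the part of B cells in these values was not tested. Ly6d and Spib, both B cell genes as well, were not called. Markers of conventional dendritic cells were mixed, with 3 of 15 higher and 2 lower. Flt3, the growth factor receptor that all dendritic cells need, stood at log2 -0.32 (adjusted p = 0.427). Red cell markers rose in 13 of 13 tested cases and platelet markers in 14 of 14, and what those transcripts add to Klk1, Ccr9 or Gpm6b was not tested.

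The genes whose levels were most like those of Siglech over the 8 libraries were Birc5, Syde1, Trim21, Sc5d and Cd300c, with Pearson's r of 0.966, 0.960, 0.957, 0.947 and 0.944. Spearman's rho was 0.690, 0.976, 0.571, 0.595 and 0.762 in that order. Birc5, Syde1 and Cd300c were low, with means of 1.17, 1.43 and 1.41 CPM. In saline replicate 3 they had 0.434, 0.682 and 0.558 CPM. These are the highest of 14723 genes and a description only, with no p. Without saline replicates 3 and 2, the libraries farthest from the median of Siglech, r was 0.572, 0.545, 0.781, 0.768 and 0.877. The r of Birc5 and Syde1 fell furthest and that of Cd300c least; some fall follows from picking the highest r over all 8 libraries. Of the 9 genes, Klk1 had r = 0.885 with Siglech, Cox6a2 0.844, Lair1 0.735 and Runx2 0.689. Smim5 stood at 0.480, Ly6d at -0.159, Pacsin1 at -0.427 and Tcf4 at -0.519. All share the same libraries, and these values were not computed without saline replicates 3 and 2.

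**Figure D4:**
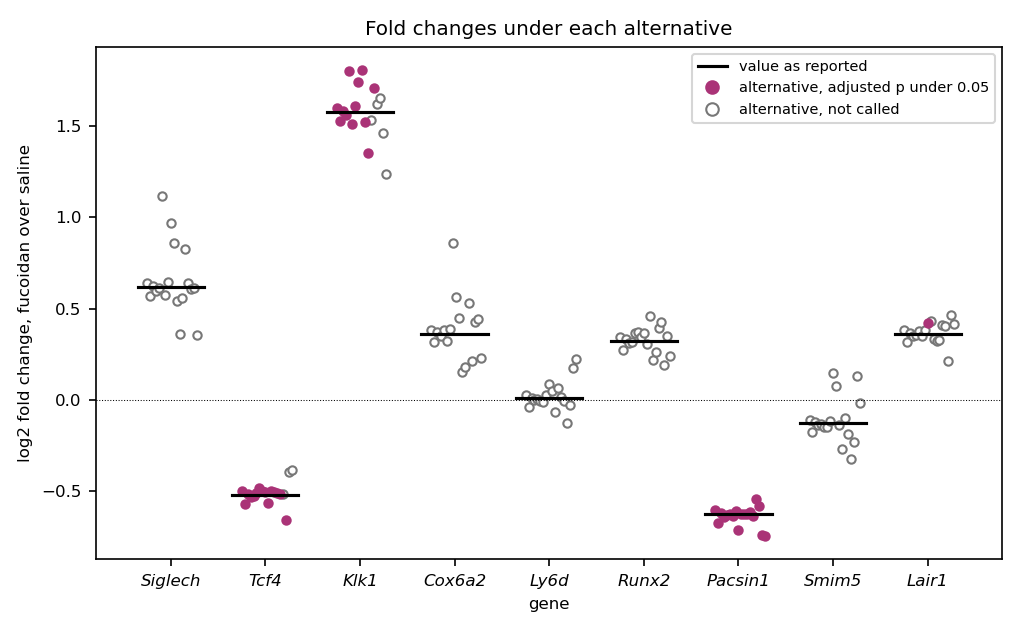
Log2 fold change of each of the 9 genes (vertical axis) as reported (black line) and under each alternative (points), filled where the adjusted p was under 0.05. Pacsin1 is filled throughout, Tcf4 and Klk1 for 15 of 18 and 12 of 17 alternatives, and Siglech, never filled, spans 0.35 to 1.12.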

How the data were processed

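What the authors deposited is raw counts, whole numbers per gene and library, beside gene names, coordinates and gene model lengths. Per the submitters' processing notes, reads were handled with cutadapt 4.0, Trimmomatic 0.39 and HISAT2 2.2.1 on GRCm39 (mm39). The counting program was not given in the sources used here, nor were the annotation release and strand use. Gene model length, in bases, is another deposited column and served only to compare levels between genes.

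Groups follow the titles; the treatment text of the fucoidan libraries says saline. All libraries share 1 batch date. The member genes and lists were chosen with earlier results of these data known. Genes were filtered with filterByExpr and tested with edgeR 4.0.16 (TMM, robust quasi-likelihood, limma 3.58.1, R 4.3.3), with Benjamini-Hochberg adjustment over all tested genes. The SE is the absolute log2 fold change over the square root of F. The permutation test used scipy 1.17.1. P-values measure the spread between these libraries. Beyond the members, up to 4 called genes with the smallest p are named from each plasmacytoid list. The same holds for the list of relatives, like-named genes and partners. Others are named for their known role or because they were singled out after their values were seen (Bst2, Irf7, Irf8, Spib, Tlr7, Tlr9, Id2, Cox6a1, Flt3 and the partners Tyrobp and Ptpn6). The procedure was also run on simulated counts. No shift in haemoglobin share was planned in them, so they do not show how such a shift bears on the calls.

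After removal of group means, libraries sharing a replicate number correlated at 0.177, 0.233 and 0.144. Those with different numbers correlated at -0.261 to 0.144, so these values do not settle whether the numbers pair the libraries. The labels give no pairing, and blocked values stand beside results they change. No library was a duplicate: correlations of log2 CPM (prior count 2) did not exceed 0.986. Alternatives were other scalings, other filters, DESeq2 1.42.0, limma-voom, the replicate block, 1 surrogate variable (sva 3.50.0), leaving out each library, and leaving out saline and fucoidan replicate 3 together, the last chosen after seeing the data. Small counts limit Klk1 and Cox6a2.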

Additional observations from a re-analysis of the deposited data

Results flagged for a closer look

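Tcf4 in the saline group had its lowest library, saline replicate 1 at 65.9 CPM, separated from the next by 0.731 of the group's whole range. Of 17 measures examined in the 5 saline libraries, this was the 1 so marked, and chance marks about 1 in 20 groups. Without saline replicate 1 the log2 fold change of Tcf4 was -0.57 (edgeR, adjusted p = 0.0174).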

How the results depend on the processing

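Pacsin1, Bcl11a and Nucb2 were called lower under all 18 alternatives. Siglech, Cox6a2, Runx2, Ly6d and Smim5 were called under none, and Lair1 by limma-voom alone (log2 0.42, adjusted p = 0.0438). Of the 9 genes 1 was called higher, 0 with at least 10 counts in every library (Klk1 then untested), 2 by limma-voom, 0 without replicate 3 of both groups, and 0 to 1 on leaving out single libraries. Called lower were 2, 1 without replicate 3 of both groups and 1 to 2 on leaving out single libraries. In the wider lists 2 were called higher, 1 with no filter, 5 with 1 surrogate variable, 4 by DESeq2, 6 by limma-voom, 1 without replicate 3 of both groups and 0 to 6 on leaving out single libraries; lower were 5, 2 without replicate 3 of both groups and 2 to 5 on leaving out single libraries.

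Ly6d changed sign, to -0.039 with upper-quartile factors, -0.0028 with no filter, -0.0039 with the replicate block, -0.0092 with 1 surrogate variable and -0.13 to 0.18 on leaving out single libraries, and stood at 0.23 without replicate 3 of both groups. Smim5 did so at 0.15 by limma-voom, and ranged from -0.32 to 0.13 on leaving out single libraries. Cox6a2 was 0.86 by limma-voom.

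Over all genes 1341 were called higher and 684 lower. With the replicate block 439 were lower, with limma-voom 1050, and with upper-quartile factors the split was 1241 and 989. Without replicate 3 of both groups 836 were higher and 143 lower, and leaving out single libraries gave 746 to 1368 higher and 182 to 856 lower. B cell markers lower numbered 12, 5 without fucoidan replicate 3 and 4 without replicate 3 of both groups. The haemoglobin difference was 11.9 percentage points, and 8.46 to 13.8 on leaving out single libraries, where fewer arrangements cannot reach 0.05. Of the 9 genes and the 7 called genes of the wider lists, the replicate block changed the calls of Blnk and Tcf3 and no other. The cause of these changes was not tested.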
